A study of Mus musculus with 43 samples.

Results

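Rasd1 encodes a dexamethasone-induced Ras protein and Rasd2 its closest relative, a pair of small GTPases of the Ras superfamily. The genes are 2 of the 10127 whose expression was measured in 4 hypothalamic nuclei of fed and fasted mice. Rasd2 entered by its name alone. Rasd1 was chosen by its measured CPM, which was higher in the paraventricular nucleus (PVN) of fasted than of fed mice, so its values in PVN are given as a description, without a test, and its values in the arcuate nucleus (ARC), dorsomedial hypothalamus (DMH) and ventromedial hypothalamus (VMH) are tested.

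All mice were adult males of strain C57/BL6 with the Snord116 cluster deleted on the paternal allele (stock B6(Cg)-Snord116tm1.1Uta/J), a cluster of imprinted small nucleolar RNAs, and no wild-type library was analysed here. Mice were either fed ad libitum or fasted for 24 hours before the brain was taken, and each nucleus was cut from frozen sections by laser capture. The 41 libraries came from 12 mice, 6 fed and 6 fasted, in 3 batches given by the labels, with 4 fasted and 5 fed libraries of ARC, 5 and 6 of DMH, 5 and 5 of PVN, and 6 and 5 of VMH. Mice are named here by the state and number in their labels (Fast-86, Fed-125), and libraries of different nuclei with the same number are from the same animal, so the nuclei are not independent of each other. Depth ranged from 1.94 to 8.23 M reads (M, mega; median 4.10). Measured marker genes of the nuclei were highest in their own captures: Npy was at 195 to 1226 CPM (read counts scaled to the library total) in ARC and had a median under 3 CPM in DMH and VMH, Avp was at 395 to 1475 CPM in PVN, Fezf1 at 172 to 256 CPM in VMH, and Npvf at 56.5 to 225 CPM in DMH. The DMH captures also held Pmch (149 to 631 CPM) and Hcrt (46.7 to 268 CPM), genes of neurons of the neighbouring lateral hypothalamus. RNA of the deleted cluster was not analysed here. Differences were fitted with limma on log2(CPM + 0.5) with batch as a covariate, and a gene is called where its p, adjusted by the Benjamini-Hochberg method over all genes tested, is under 0.1.

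Rasd1 was first found as a transcript raised by the synthetic glucocorticoid dexamethasone, and Rasd2, also called Rhes, is its closest relative and is best known from striatal neurons, where thyroid hormone regulates it. Both proteins carry the guanine nucleotide-binding core of Ras and a C-terminal site for a lipid anchor, and both modulate signalling through heterotrimeric G proteins. RASD1 also binds the adaptor NOS1AP together with neuronal nitric oxide synthase. In the PVN and the supraoptic nucleus, Rasd1 is known as a gene that responds to stress, salt load and glucocorticoids. Fasting raises circulating corticosterone in mice. These statements are background and were not measured here.

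Rasd1 (ENSMUSG00000049892) lies at chr11:59963181-59964944 on the minus strand of GRCm38, and its 1 annotated transcript has 2 exons and 1611 bases, of which 843 are coding (280 codons). Rasd2 (ENSMUSG00000034472) lies at chr8:75213944-75224113 on the plus strand, has 2 annotated transcripts of 3 exons each, and covers 3176 exonic bases, of which 801 are coding (266 codons). No other annotated gene overlaps either of them. The sequences bear on whether reads of one gene could be counted for the other, because the reads were short and the genes are related. The coding sequences were identical at 549 of 792 aligned bases (69.3%), and the longest run of bases they share was 16. None of the 1562 stretches of 50 bases in the Rasd1 transcript (0) occurred in Rasd2 or in any other annotated transcript. Of the 3096 such stretches of Rasd2, 0 occurred in Rasd1 and 10 in other genes. The 60 coding bases in which the genes are most alike are given as sense-strand sequence from GENCODE M21, with the 8 differing bases in capitals. They cross an exon junction in both genes, 34 bases into the stretch, from exon 1 to 2 in Rasd1 (coding bases 253 to 312, chr11:59964341-59964553 with the intron) and from exon 2 to 3 in Rasd2 (coding bases 238 to 297, chr8:75218782-75221744 with the intron).
Rasd1: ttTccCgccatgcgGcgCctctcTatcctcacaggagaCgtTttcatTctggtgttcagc
Rasd2: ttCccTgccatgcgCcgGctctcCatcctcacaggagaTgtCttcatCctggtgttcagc

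Rasd1 was highest in the fasted PVN. Its level there was 8.02 CPM in mouse Fast-305, 15.2 in mouse Fast-101, 16.2 in mouse Fast-100, 20.4 in mouse Fast-311 and 58.0 in mouse Fast-86. In the fed PVN it was 2.29 CPM in mouse Fed-125, 4.28 in mouse Fed-127, 4.76 in mouse Fed-313, 5.16 in mouse Fed-111 and 7.16 in mouse Fed-308. Every fasted library lay above every fed library, and mouse Fast-86 stood apart from the other fasted mice. In this nucleus 0.703% of all genes tested were higher in fasted mice without overlap, and 0.304% were called higher, shares given for reference only since this contrast chose the gene. The library of mouse Fast-86 rested on 307 reads of Rasd1, with a 95% Wilson interval of 51.9 to 64.9 CPM that covers counting error only. The fasted mean was 23.6 ± 19.8 CPM (SD, n = 5) with mouse Fast-86 and 14.9 ± 5.13 CPM (SD, n = 4) without it, against 4.73 ± 1.75 CPM (SD, n = 5) in fed mice. The difference of log2(CPM + 0.5), fasted minus fed, was 1.96 (SE 0.41). Within batches it was 3.37 in batch 1, which held 1 library of each state with mouse Fast-86 as the fasted one, 2.15 in batch 2 and 1.07 in batch 3.

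**Figure D1:**
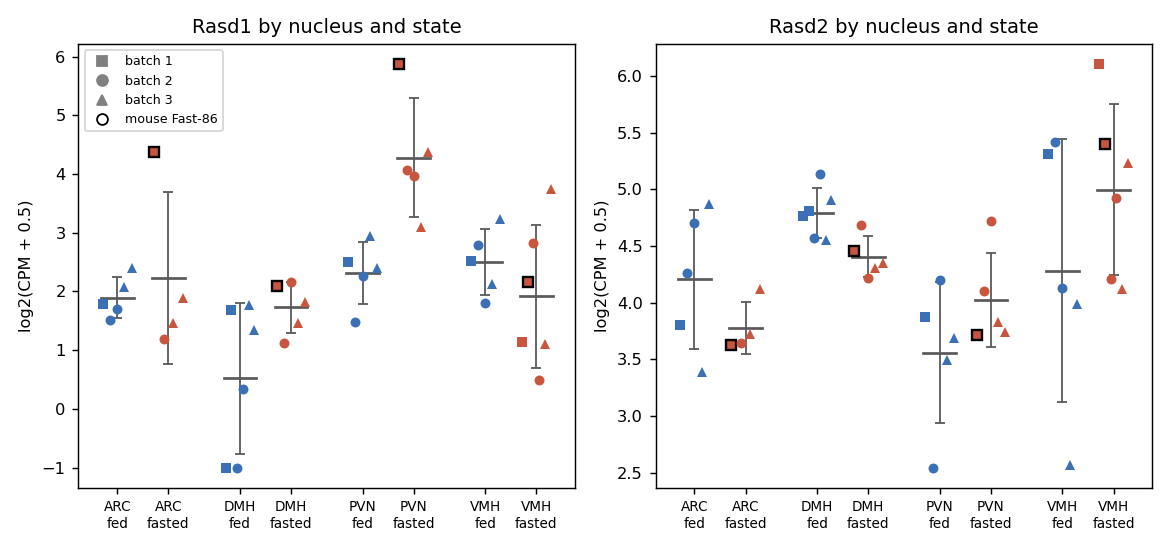
Level of Rasd1 (left) and Rasd2 (right) as log2(CPM + 0.5) in each library, by nucleus and nutritional state, with bars for the mean ± SD of each group; symbol shape gives the batch, black outlines mark mouse Fast-86, and the vertical scales differ. The 5 fasted PVN libraries of Rasd1 lie above the 5 fed ones, and mouse Fast-86 lies far above the other mice in ARC and PVN but within their range in DMH and VMH.

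In ARC, Rasd1 was low in all libraries except that of fasted mouse Fast-86. Fasted libraries held 1.79 CPM (mouse Fast-100), 2.26 (mouse Fast-305), 3.22 (mouse Fast-311) and 20.4 (mouse Fast-86), and fed libraries held 2.37 (mouse Fed-125), 2.74 (mouse Fed-127), 2.95 (mouse Fed-111), 3.73 (mouse Fed-308) and 4.77 (mouse Fed-313). The groups overlapped, and leaving out mouse Fast-86 brought the fasted mean from 6.91 ± 8.99 CPM (SD, n = 4) to 2.42 ± 0.729 CPM (SD, n = 3), below the fed mean of 3.31 ± 0.953 CPM (SD, n = 5). The fitted difference was 0.21 (SE 0.58, 95% interval -1.004 to 1.43, limma adjusted p = 0.944), where 0.176% of all genes were called. It was -0.50 without the library of mouse Fast-86 and equally -0.50 without that of fed mouse Fed-111, since these were the only libraries of batch 1. Within batches 2 and 3 it was -0.41 and -0.56.

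In DMH, Rasd1 was near the limit of detection in some fed mice. The 5 fasted libraries held 1.67 CPM (mouse Fast-100), 2.26 (mouse Fast-305), 3.02 (mouse Fast-311), 3.77 (mouse Fast-86) and 3.95 (mouse Fast-101). The 6 fed libraries ranged from 0 to 2.92 CPM with a median of 1.40, and those of mice Fed-92 and Fed-125 had no read (0), which by a floor of 3 reads allows up to 0.870 and 0.624 CPM. All other DMH libraries had 4 to 24 reads, and the groups overlapped. The difference of 1.21 (SE 0.64, 95% interval -0.13 to 2.54) was positive in all 3 batches but only 0.08 in batch 3, and it did not pass the threshold (limma adjusted p = 0.785, unadjusted p = 0.0737). Its size depended on the pseudocount: it was 1.95 with 0.1 and 0.62 with 2, and was not called with either. In DMH 0.0103% of genes were called. An exact permutation test over the libraries, 2-sided and without batch, gave p = 0.0866.

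In VMH, Rasd1 differed more among the fasted mice than between the states. The 6 fasted libraries ranged from 0.914 CPM in mouse Fast-101, which is 3 reads, to 12.9 CPM in mouse Fast-311, with a median of 2.84, and mouse Fast-86 had 3.98. Fed libraries held 3.00 CPM (mouse Fed-127), 3.85 (mouse Fed-308), 5.23 (mouse Fed-111), 6.39 (mouse Fed-125) and 8.96 (mouse Fed-313), all within the fasted range. The difference was -0.55 (SE 0.58, 95% interval -1.74 to 0.64, limma adjusted p = 0.925), where 0.0208% of genes were called. It was -0.20 without mouse Fast-101, -0.21 without mouse Fast-305, -0.87 without mouse Fast-100 and -0.97 without mouse Fast-311.

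Over ARC, DMH and VMH together, with libraries of 1 mouse treated as related, the mean fasting difference of Rasd1 was 0.29 (SE 0.35, 95% interval -0.42 to 1.00) and was not called (limma adjusted p = 0.832), while 1.11% of all genes were. Without mouse Fast-86 it was -0.06, without mouse Fed-92 0.16 and without mouse Fast-305 0.54. An exact permutation test over the 6 fasted and 6 fed mice gave p = 0.496. An F-test of whether the change of Rasd1 differed among these 3 nuclei gave F = 3.01 (limma, unadjusted p = 0.0587, adjusted p = 0.948), and limma called 0% of genes in this test, with 5.18% at an unadjusted p under 0.05. The largest gap was between DMH and VMH, 1.91 on the log2 scale (95% interval 0.34 to 3.47, limma adjusted p = 0.902). The F-test with PVN was not made for Rasd1, since PVN chose it.

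In PVN, Rasd2 had a positive fasting difference that was not called. Its level was 12.7 CPM (mouse Fast-86), 12.9 (mouse Fast-311), 13.7 (mouse Fast-305), 16.7 (mouse Fast-100) and 25.9 (mouse Fast-101) in fasted mice and 5.34 (mouse Fed-125), 10.7 (mouse Fed-308), 12.4 (mouse Fed-313), 14.1 (mouse Fed-111) and 17.9 (mouse Fed-127) in fed mice. The groups overlapped, and mouse Fast-86, the highest fasted mouse for Rasd1, was the lowest for Rasd2. Means were 16.4 ± 5.55 CPM (SD, n = 5) fasted and 12.1 ± 4.61 CPM (SD, n = 5) fed, a difference of 0.47 (SE 0.35, 95% interval -0.28 to 1.21, limma adjusted p = 0.717), where 0.367% of genes were called in either direction. Within the batches it was -0.15, 1.04 and 0.20, and it was 0.12 without mouse Fed-125 and 0.28 without mouse Fast-101.

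In DMH, Rasd2 was lower in most fasted mice. Fasted libraries held 18.2 CPM (mouse Fast-101), 19.3 (mouse Fast-305), 19.9 (mouse Fast-311), 21.5 (mouse Fast-86) and 25.3 (mouse Fast-100). The 6 fed libraries ranged from 23.0 to 34.7 CPM, with a median of 27.1. The libraries of 4 of the 5 fasted mice lay below all fed ones, and mouse Fast-100 lay within the fed range. The mean was 20.8 ± 2.78 CPM (SD, n = 5) fasted and 27.5 ± 4.35 CPM (SD, n = 6) fed, and the difference of -0.38 (SE 0.24, 95% interval -0.88 to 0.12) was not called across all genes (limma adjusted p = 0.832). Within the batches it was -0.33, -0.40 and -0.40. An exact permutation test over the libraries of this gene alone, 2-sided and without batch, gave p = 0.0152, the smallest unadjusted p of the 9 permutation tests made on both genes.

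In ARC and VMH, the fed and fasted values of Rasd2 overlapped widely. ARC held 11.9 CPM (mouse Fast-86), 11.99 (mouse Fast-100), 12.7 (mouse Fast-305) and 16.9 (mouse Fast-311) in fasted mice and 9.95 (mouse Fed-308), 13.5 (mouse Fed-111), 18.6 (mouse Fed-125), 25.5 (mouse Fed-127) and 28.8 (mouse Fed-313) in fed mice, a difference of -0.39 (SE 0.36, limma adjusted p = 0.782) that was -0.16 without mouse Fed-313, -0.20 without mouse Fast-100 and -0.70 without mouse Fed-308. VMH held 16.9 to 68.3 CPM in fasted mice, with a median of 33.5, and 5.43 (mouse Fed-308), 15.4 (mouse Fed-313), 17.0 (mouse Fed-127), 39.3 (mouse Fed-111) and 42.3 (mouse Fed-125) in fed mice, a difference of 0.56 (SE 0.35, limma adjusted p = 0.816). The highest VMH library, of fasted mouse Fast-85, rested on 280 reads. Within batches 2 and 3 the VMH difference was -0.21 and 1.40, and it was 0.23 without mouse Fed-308, 0.28 without mouse Fast-311 and 0.85 without mouse Fed-125. The mean change over ARC, DMH and VMH was -0.02 (SE 0.21, limma adjusted p = 0.986), with p = 0.701 in the exact permutation test over mice. The F-test of whether the change differed among all 4 nuclei gave F = 2.39 (limma, unadjusted p = 0.0808, adjusted p = 0.933), where 0% of genes were called and 5.16% had an unadjusted p under 0.05. Over ARC, DMH and VMH it gave F = 2.95 (limma adjusted p = 0.948).

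**Figure D2:**
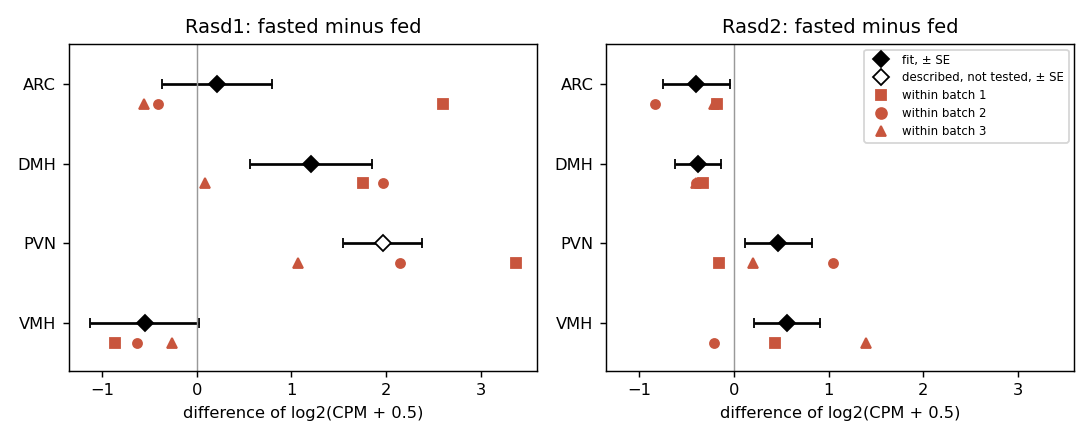
Fasted minus fed difference of log2(CPM + 0.5) for Rasd1 (left) and Rasd2 (right) in each nucleus; diamonds with bars are the fitted difference ± SE, and red symbols are the differences within single batches. The open diamond is Rasd1 in PVN, 1.96, whose 3 within-batch values run from 1.07 to 3.37; in ARC the batch 1 value of Rasd1, 2.60, rests on mouse Fast-86.

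Over both states the order of the nuclei differed between the genes. For Rasd1 this order is a description, since it includes the PVN values that chose the gene. In fed libraries alone its mean was 5.49 CPM in VMH and 4.73 in PVN. Rasd1 had its highest mean over both states in PVN (14.1 CPM), followed by VMH (5.02), ARC (4.91) and DMH (2.10), while Rasd2 was highest in VMH (30.1 CPM), followed by DMH (24.4), ARC (16.6) and PVN (14.2). Without mouse Fast-86 the Rasd1 means were 9.27 CPM in PVN, 5.12 in VMH, 2.98 in ARC and 1.93 in DMH, in the same order. Differences between nuclei were fitted as log2(CPM + 0.5) with fed and fasted mice weighted equally, and the labels give no count of cells, so more cells that express a gene and more RNA per cell cannot be told apart.

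Rasd1 was lower in DMH than in VMH, with DMH minus VMH at -1.08 on the log2 scale (SE 0.39, 95% interval -1.85 to -0.30, limma adjusted p = 0.0429), where 23.4% of all genes were called, and with the mouse as a block the adjusted p was 0.0434. This call was lost without mouse Fast-100 (limma adjusted p = 0.138), mouse Fed-125 (0.140) or mouse Fast-311 (0.139). It was present in fed libraries, with a difference of -1.96 (limma adjusted p = 0.00901), and absent in fasted ones, with -0.05 (adjusted p = 0.971). ARC exceeded DMH by 0.92 (SE 0.41, limma adjusted p = 0.137), where 18% of genes were called, and ARC and VMH differed by -0.15 (95% interval -0.98 to 0.67, limma adjusted p = 0.835), where 30.3% were. DMH had the lowest mean of Rasd1 in fed mice, 1.41 CPM, and in fasted mice with Fast-86 included; without Fast-86 the fasted mean was 2.42 CPM in ARC and 2.73 in DMH. The middle pair of the order, VMH and ARC, did not differ beyond the spread.

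The place of PVN at the top of the Rasd1 order came with the fasted libraries. Over both states PVN minus VMH was 1.12, ARC minus PVN -1.28 and DMH minus PVN -2.199 on the log2 scale, values that carry no test. In fed libraries alone PVN and VMH differed by -0.18 (SE 0.52), and in fasted libraries alone by 2.49 (SE 0.56). Fed PVN, at 2.29 to 7.16 CPM, lay within the range of the VMH libraries.

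Rasd2 was lower in PVN than in VMH, with PVN minus VMH at -0.83 on the log2 scale (SE 0.25, 95% interval -1.34 to -0.33, limma adjusted p = 0.00978), where 31.3% of all genes were called. It was also lower in PVN than in DMH, with DMH minus PVN at 0.79 (SE 0.25, limma adjusted p = 0.0257), where 18% were called. ARC was lower than VMH, with a difference of -0.62 (SE 0.26, limma adjusted p = 0.0745), a call lost without mouse Fast-85, Fast-86, Fed-111 or Fed-125 (adjusted p = 0.141, 0.195, 0.263 and 0.181). ARC minus DMH was -0.58 (limma adjusted p = 0.144), ARC minus PVN 0.21 (adjusted p = 0.714, with 16.7% of genes called) and DMH minus VMH -0.04 (95% interval -0.54 to 0.45, adjusted p = 0.934). With the mouse as a block the called pairs had adjusted p values of 0.00987, 0.0260 and 0.0749. The calls did not all hold within a state: in fed libraries alone PVN minus VMH was -0.73 (limma adjusted p = 0.255) and ARC minus VMH -0.0789 (adjusted p = 0.933), and in fasted libraries alone DMH minus PVN was 0.38 (adjusted p = 0.567). With library weights PVN minus VMH was -0.47 (limma adjusted p = 0.123) and ARC minus VMH -0.35 (adjusted p = 0.297). DMH was the nucleus with the least spread, 18.2 to 34.7 CPM over 11 libraries, and VMH the one with the most, 5.43 to 68.3 CPM over 11.

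**Figure D3:**
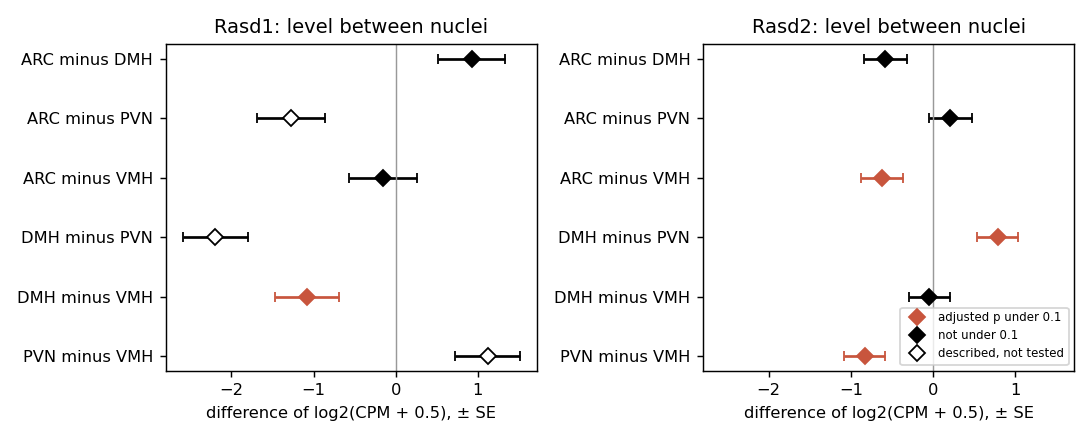
Differences of log2(CPM + 0.5) between pairs of nuclei, fed and fasted weighted equally, for Rasd1 (left) and Rasd2 (right), with bars for the SE. Red marks an adjusted p under 0.1 and open symbols are pairs described without a test; Rasd1 DMH minus VMH (-1.08) and Rasd2 PVN minus VMH (-0.83), DMH minus PVN (0.79) and ARC minus VMH (-0.62) are red.

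The genes differ in length, so they were compared with each other only as CPM per kilobase, over the 1611 bases of Rasd1 and all 3176 exonic bases of Rasd2, whose annotated transcripts Rasd2-201 and Rasd2-202 have 1299 and 2810 bases. On that scale Rasd2 exceeded Rasd1 in 32 of 41 libraries, with medians of 5.72 and 2.32 CPM per kb. Rasd2 was the higher of the pair in 11 of 11 DMH, 8 of 9 ARC and 9 of 11 VMH libraries. In PVN it was higher in 4 of 5 fed libraries and in 0 of 5 fasted libraries, where the medians were 10.05 CPM per kb for Rasd1 and 4.33 for Rasd2. The PVN counts include the values that chose Rasd1, so they are a description. They also depend on the length given to Rasd2. Over the 1299 bases of Rasd2-201, Rasd2 was higher in 38 of 41 libraries, in 5 of 5 fed and in 3 of 5 fasted PVN libraries, with a fasted PVN median of 10.6 CPM per kb, and over the 2810 bases of Rasd2-202 the counts were 32 of 41, 4 of 5 and 0 of 5. Which transcript the reads came from was not tested. The exception in ARC was fasted mouse Fast-86, at 12.6 CPM per kb of Rasd1 against 3.73 of Rasd2. Across the 41 libraries the log2 levels of the genes had a Pearson r of -0.23, and of 0.03 once nucleus and batch means were removed, and without mouse Fast-86 these were -0.17 and 0.23, all given as a description because libraries share mice.

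**Figure D4:**
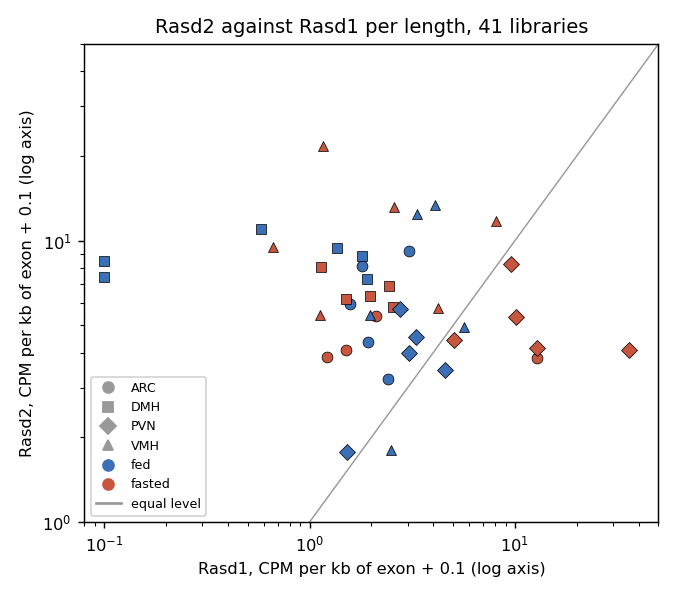
CPM per kb of exon + 0.1 of Rasd2 (vertical) against Rasd1 (horizontal) in 41 libraries, both on log axes, with the line of equal level and all 3176 exonic bases as the length of Rasd2. The 5 fasted PVN libraries and 1 fasted ARC library, of mouse Fast-86, lie to the right of the line, together with 1 fed PVN and 2 fed VMH libraries.

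The other genes known to be raised by glucocorticoids were measured beside Rasd1. Of a list of 20 such genes, 8 were measured: Tsc22d3 (encoding GILZ), Zbtb16, Klf9 (both transcription factors), the metallothioneins Mt1 and Mt2, Errfi1 (an inhibitor of the EGF receptor), Sult1a1 (a sulfotransferase) and Tgm2 (a transglutaminase). Several of them, the metallothioneins among them, respond to other signals as well. In PVN 8 of 8 had a higher fitted value in fasted mice, with a median difference of 0.94 on the log2 scale against 0.01 over all genes tested, and 2 of them rose, where 0.304% of all genes did. Mt1 rose from 28.0 ± 13.2 to 61.9 ± 35.5 CPM (SD, n = 5 and 5; log2 difference 1.08, SE 0.19, limma adjusted p = 0.0275), and Mt2 rose from 36.3 ± 12.4 to 112 ± 120 CPM (1.20, SE 0.25, limma adjusted p = 0.0637). The mean of Mt2 was carried by mouse Fast-86, at 325 CPM.

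The same list had a higher fitted value for 8 of 8 genes in ARC (median 0.81), for 7 of 8 in DMH (median 0.43) and for 7 of 8 in VMH (median 0.51), against medians between 0.00 and 0.02 over all genes in these nuclei. In ARC 1 of them, Mt2, rose, where 0.104% of all genes did (41.2 ± 21.5 to 120 ± 108 CPM, SD, n = 5 and 4; log2 difference 1.26, limma adjusted p = 0.0823). The fasted ARC mean of Mt2 was carried by mouse Fast-86, at 279 CPM, and was 66.9 CPM without it. In DMH and VMH limma called 0 of 8, and 0% of all genes were called higher in either; 4 of 8 in DMH and 5 of 8 in VMH were positive at an unadjusted p under 0.05, where 3.1% and 3.43% of all genes were. Without mouse Fast-86 the positive counts in ARC and PVN stayed at 8 of 8 with medians of 0.54 and 0.78. In these fits limma called 0 of the list in ARC, where 5 of 9795 genes were called in either direction. In PVN it called 1, where 23 of 9635 genes were called, and this was Mt1 (log2 difference 1.04, limma adjusted p = 0.0656). Mt2 was not called, with a log2 difference of 1.09 in ARC (limma adjusted p = 0.348) and 0.87 in PVN (limma adjusted p = 0.199). The list was chosen with earlier results of these data known.

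Mouse Fast-86 had the highest summed level of these 8 genes among the fasted libraries of every nucleus, at 706 (ARC), 583 (DMH), 767 (PVN) and 723 CPM (VMH). Its Rasd1 level was the highest of all libraries in ARC (20.4 CPM) and PVN (58.0 CPM). In DMH it was 3.77 CPM, above all fed libraries and below fasted mouse Fast-101 at 3.95, and in VMH it was 3.98 CPM, within the fed range. Among the other fasted PVN libraries, the sum was lowest (237 CPM) in mouse Fast-305, which also had the least Rasd1 of them, while mouse Fast-311, with the most Rasd1 of them, had a sum of 327 CPM, below the 376 and 345 CPM of mice Fast-100 and Fast-101. In VMH, fed mouse Fed-111 had a sum of 533 CPM and 5.23 CPM of Rasd1, and fed mouse Fed-313 had a sum of 267 CPM and the highest fed Rasd1 of 8.96 CPM. The highest sum and the highest Rasd1 thus fell in the same library in PVN and ARC, and not in DMH or VMH.

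**Figure D5:**
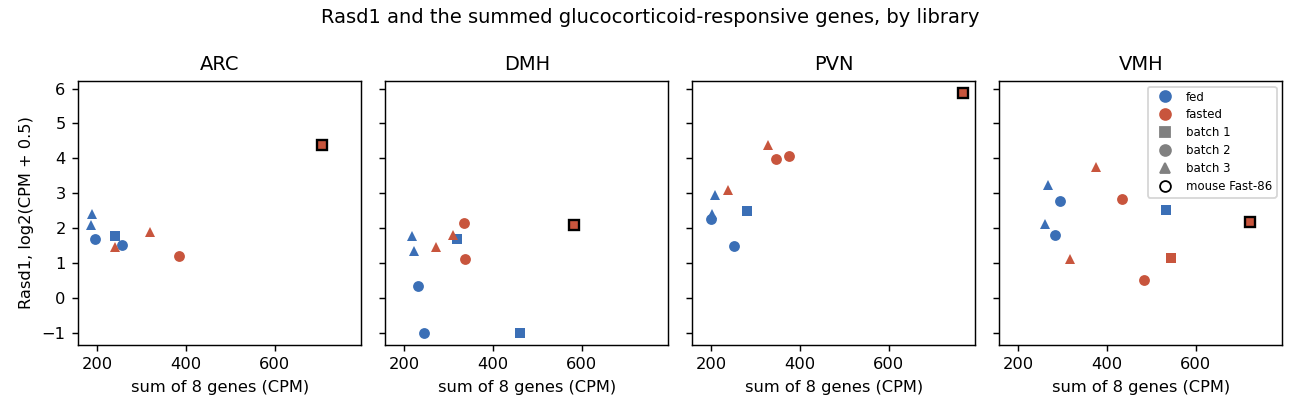
Rasd1 as log2(CPM + 0.5) against the summed CPM of the 8 measured glucocorticoid-responsive genes, 1 point for each library, by nucleus; colour gives the state, shape the batch, and black outlines mark mouse Fast-86. Mouse Fast-86 has the highest sum in each panel, 583 to 767 CPM, and the highest Rasd1 in ARC and PVN. In PVN Mt1 and Mt2 gave 124 and 325 CPM of its sum.

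Markers of the nuclei and of other cell types were read beside the values of mouse Fast-86. The 10127 genes summed to 689010 CPM in its PVN library, the highest of all 41 libraries. In its ARC library they summed to 636082 CPM, the highest of that nucleus. Mouse Fed-111, of the same batch, was next in both, at 657687 and 604723 CPM. In ARC of mouse Fast-86, 525 genes had no read, the most of that nucleus. In its PVN this count was 369, below the 534 of mouse Fed-125. The part of these library traits in its levels was not tested. Of 16 nucleus markers 7 were measured, and several stood high in the libraries of this mouse. In PVN its Crh, which encodes corticotropin-releasing hormone, was at 126 CPM, against 14.5 to 26.3 CPM in the other fasted and 24.3 to 39.4 CPM in the fed libraries. Its Avp, which encodes vasopressin, was at 1475 CPM in PVN, against at most 1029 CPM in the other fasted and 1249 CPM in the fed libraries. Its Npy, of the hunger-promoting neurons of ARC, was at 1226 CPM there, against at most 732 CPM in the other fasted and 370 CPM in the fed libraries. In these nuclei, where its Rasd1 was also the highest, each of these levels was thus the highest of all libraries. In VMH its Fezf1, at 205 CPM, lay within the range of the other libraries. In DMH its Npvf, at 112 CPM, lay within the fed range, while its Hcrt was the highest DMH value at 268 CPM. Some markers of other regions were also highest in this mouse: Fezf1 in PVN (21.9 CPM, others at most 13.3) and Hcrt in ARC (10.9, others at most 3.80). In VMH these were Pmch (75.9 CPM, others at most 38.1), Npy (18.1, at most 11.9) and Hcrt (11.9, at most 3.65). Not all were: in PVN its Pmch, at 0.378 CPM, was the lowest. The part of the captured neurons, or of neighbouring tissue, in the Rasd1 level was not tested. Of 20 vascular and perivascular genes 12 were measured, with a sum in PVN of 295 to 445 CPM in fasted and 253 to 353 CPM in fed libraries, the highest being mouse Fast-86. In ARC the sum of mouse Fast-86, 105 CPM, lay within the 90.5 to 125.4 CPM of all ARC libraries, with Lyve1 making up 39.5 CPM of it. Over the other 11 genes the sum in ARC of mouse Fast-86 was 65.4 CPM, the lowest of the 9 ARC libraries, of which the next lowest was at 85.7, while in PVN it was 406 CPM and still the highest, above the highest fed library at 353. In VMH, where the Rasd1 of mouse Fast-86 was within the fed range, its sum over the 12 genes was also the highest, 186 CPM against at most 173 CPM in the other libraries. One gene of this list, Lyve1, which marks lymphatic endothelium and perivascular macrophages, was at 38.6 CPM in PVN and 39.5 CPM in ARC of mouse Fast-86, 0.377 in DMH and 2.76 in VMH, and did not exceed 5.57 CPM in any other library. In PVN Lyve1 was at 1.82 to 38.6 CPM in fasted and at 0 to 1.63 CPM in fed libraries, and it passed the filter on low values through the fasted group alone, so no call of it is counted. Lyve1 and Rasd1 of mouse Fast-86 thus stood far above the other mice in the same nuclei. F13a1, another gene of this list, did not: in PVN of mouse Fast-86 it was at 0.567 CPM, within the fed range of 0 to 7.63 CPM. The part of cells marked by Lyve1 in the Rasd1 level was not tested. The sums of 14 measured glial genes and of 3 suprachiasmatic genes in PVN of mouse Fast-86, 853 and 140 CPM, lay within the fed range, while that of 10 genes of blood, choroid plexus and meninges, 65.4 CPM, lay above the fed range of 29.6 to 44.5 CPM and below the highest fasted library at 71.8.

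Genes that act with RASD proteins showed no called change. Of 28 listed partners and effectors 13 were measured, among them Nos1 (neuronal nitric oxide synthase), Nos1ap (its adaptor), the G protein subunits Gnao1, Gnb1, Gnai1, Gnai2, Gnai3 and Gnb2, Mtor, Becn1 and Htt (reported partners of RASD2) and the hormone receptors Thra and Nr3c2. In PVN 8 of 13 had a positive difference, with a median of 0.01, limma called 0 of them, and 0 had an unadjusted p under 0.05, where 9.97% of all genes did. Without mouse Fast-86 limma again called 0 of 13, where 23 of 9635 genes were called. At an unadjusted p under 0.05, 2 were higher and 1 lower. The share of all genes at that p in this fit is not given, so these counts are a description only. Nos1 was at 186 ± 32.1 CPM fasted and 172 ± 34.2 CPM fed in PVN (SD, n = 5 and 5), and Nos1ap at 13.5 ± 3.86 and 9.61 ± 7.36 CPM. In ARC, DMH and VMH limma also called 0 of 13, with 2, 0 and 1 at an unadjusted p under 0.05, where 8.1%, 6.62% and 6.98% of all genes were. These were Nos1ap and Gnb1 in ARC and Becn1 in VMH, all lower in fasted mice. In ARC Nos1ap was at 14.5 ± 4.82 CPM fasted and 30.2 ± 14.2 CPM fed (SD, n = 4 and 5). Its log2 difference there was -1.02 (limma adjusted p = 0.471). Of 33 other genes of the Ras family 18 were measured, and 0 were called by limma in any nucleus. At an unadjusted p under 0.05 there were 4 of 17 in ARC (3 higher), 1 of 18 in DMH, 1 of 17 in PVN and 2 of 18 in VMH, against the shares of all genes of 8.1%, 6.62%, 9.97% and 6.98%. Over the nuclei the list medians ran from -0.06 to 0.01 for the partners and from -0.14 to 0.08 for the family.

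The genes with the pattern most like that of each member were taken by Pearson r of log2(CPM + 0.5) across the 41 libraries, among 7638 genes with a mean of at least 5 CPM. For Rasd1 these were Kcnmb4os2 (r = 0.71), Mast4 (0.62), Disp2 (0.60), Rab3ip (0.58) and Tmed3 (0.58). The PVN values that chose Rasd1 are among the 41 libraries, so its r values carry no test. Kcnmb4os2, with a mean of 5.96 CPM, passed the filter through PVN alone, where mouse Fast-86 was at 91.7 CPM. Its group means in the other nuclei were at most 4.62 CPM. With nucleus and batch means removed they were Rhob (r = 0.64), which encodes another small GTPase, Cpne7 (0.62), Cbln4 (0.61), Nfkbiz (0.60), an inhibitor of NF-kB that is induced on stimulation, and Kcnj9 (0.59), a potassium channel opened by G proteins. Without the libraries of mouse Fast-86 the first set had r values of 0.41 to 0.61 and the second 0.46 to 0.54. Within the Ras family Rras (0.33), Rit2 (0.27) and Rerg (0.26) were nearest to Rasd1 before these means were removed, and Rerg (0.38), Rras (0.34) and Diras1 (0.30) after.

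For Rasd2 the most similar genes were Gm2a (r = 0.62), ENSMUSG00000068221 (0.61), the neuronal calcium sensor gene Hpca (0.61), 5031439G07Rik (0.61) and the transcription factor gene Sox2 (0.61). With nucleus and batch means removed they were Vwa5b1 (0.68), Cox4i1 (0.61), Sh3bp4 (0.61), Arpc3 (0.60) and Ctu2 (0.57). Within the Ras family Mras (0.43), Diras2 (0.41) and Diras1 (0.27) were nearest before these means were removed, and Rras (0.17), Diras1 (0.16) and Diras2 (0.15) after. These correlations are a description: libraries of 1 mouse are related, and the highest of 7638 values is high by selection. No gene was among the 5 most similar to both members.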

How the data were processed

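Fed and fasted mice were compared within each of 4 laser-captured nuclei. RNA, per the labels and methods, was amplified (Ovation RNA-Seq System V2) and sequenced as single-end reads, and the submitters' processing notes name CASAVA 1.7, TopHat2 2.0.11, Cufflinks 2.2.1, edgeR, limma and GRCm38. The authors left out outlier libraries, which can lower the spread between replicates. How reads were assigned to genes, and use of strand, are not given in the sources used here. The authors deposited CPM for 10127 Ensembl genes, and 9891 were matched to GENCODE M21 symbols. Of 43 columns 41 matched a sample; 2 columns (ARC of mice Fast-85 and Fed-92) matched none and were not used, and 2 samples (PVN of the same mice) were not analysed here.

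Depth was read from low values, of which 97.0% to 98.6% in each library were whole multiples (within 0.02 reads) of the value of 1 read; because the rest were not, no count test was run. All 82 values of both genes were whole reads. Floors are 3 reads, and intervals are 95% Wilson; both cover counting error only.

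Tests used limma 3.58.1 in R 4.3.3 (lmFit, eBayes with trend) on log2(CPM + 0.5), which understates changes of low genes, with batch as a covariate, a minimum of 1 CPM in a number of libraries equal to the smaller group, Benjamini-Hochberg adjustment over all genes tested, and an adjusted p under 0.1 as threshold. Levels between nuclei and F-tests came from 1 fit of 8 group means. In the mean over ARC, DMH and VMH, the mouse was a block. Same-numbered libraries come from the same animal, and their deviations had a median r of 0.10 over 57 pairs against 0.00 for other pairs. The scripts were tested on simulated data. Named genes were both members, listed genes past the threshold, otherwise up to 6 of a list by mean CPM, and for each member the 5 of highest r. Members, lists and tests were chosen with earlier results of these data known. Alternatives were other pseudocounts, filters, scaling, weights and covariates, leaving out each library or mouse, single batches and, chosen after seeing the data, fasted libraries alone, lists without mouse Fast-86 and the length of each Rasd2 transcript.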

Additional observations from a re-analysis of the deposited data

Results flagged for a closer look

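Of 14 groups (each gene in each nucleus and state, without Rasd1 in PVN, whose values chose the gene), 2 held a library far from the rest by Dixon's 95% critical value, where chance alone gives about 0.7. Rasd1 in fasted ARC was 20.4 CPM in mouse Fast-86, against 1.79 to 3.22 CPM in the other 3 mice. Rasd2 in fasted ARC was 16.9 CPM in mouse Fast-311, against 11.9 to 12.7 CPM in the other 3, and mouse Fast-311 was not apart for Rasd2 in any other nucleus.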

How the results depend on the processing

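Alternatives were computed for each fasting difference, level difference and F-test. The calls of Rasd1 and Rasd2 within nuclei did not change under other pseudocounts, filters or scaling in the limma fits, and the mouse as a replicate block changed no call (the mean change over ARC, DMH and VMH without the block was 0.29 for Rasd1 and -0.03 for Rasd2). The filter on a mean of 5 CPM removed Rasd1 from the fits of ARC, of DMH and of the mean over ARC, DMH and VMH. With library weights, Rasd1 in ARC was -0.16, its mean change -0.0101, Rasd2 ARC minus VMH -0.35, DMH minus VMH 0.20 and PVN minus VMH -0.47 (adjusted p = 0.123). With depth as a covariate the mean change of Rasd2 was 0.0476, and over mice, without batch, 0.14. Depth as a covariate gave 0.48 for Rasd1 in ARC, 1.78 in DMH and -1.01 in VMH, none of them called. With a pseudocount of 0.1, Rasd1 ARC minus DMH passed at 1.32 (limma adjusted p = 0.0992). Pseudocounts of 0.1 and 2 gave 1.95 and 0.62 for Rasd1 in DMH and -0.66 and -0.34 in VMH. For the mean change of Rasd1 they gave 0.50 and 0.17. Single batches gave 2.60 for Rasd1 in ARC (batch 1), 0.0838 in DMH (batch 3) and 3.37 and 1.07 in PVN (batches 1 and 3), and for Rasd2 -0.15 in PVN (batch 1) and 1.40 in VMH (batch 3). Without batch, the exact permutation test of Rasd2 in DMH gave -0.38 (p = 0.0152).

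In fed libraries alone, Rasd2 ARC minus VMH was -0.0789, DMH minus VMH 0.47 and PVN minus VMH -0.73, and Rasd1 PVN minus VMH -0.18. In fasted libraries alone, Rasd2 ARC minus PVN was -0.25 and DMH minus PVN 0.38, and Rasd1 ARC minus VMH was 0.38, DMH minus VMH -0.0543 and PVN minus VMH 2.49. With the length of Rasd2-201, chosen after seeing the data, Rasd2 exceeded Rasd1 per kilobase in 3 in place of 0 fasted PVN libraries. The causes were not tested. Leaving out 1 library or mouse at a time gave -0.50 to 0.49 for Rasd1 in ARC, -0.0604 to 0.54 for its mean change, -0.54 to 0.10 for its ARC minus VMH, -1.27 to -0.88 for its DMH minus VMH and 1.61 to 2.30 for its change in PVN. For Rasd1 in VMH it gave -0.97 to -0.20. For Rasd2 it gave -0.70 to -0.16 in ARC, 0.12 to 0.63 in PVN, 0.23 to 0.85 in VMH, -0.24 to 0.10 for the mean change, -0.75 to -0.44 for ARC minus VMH and -0.23 to 0.11 for DMH minus VMH. The counts of called genes behind the background shares were less steady, at 17 in ARC (0 to 24 over the alternatives), 1 in DMH (0 to 2), 35 in PVN (2 to 79), 2 in VMH (1 to 5) and 112 in the mean (8 to 193). Depth limits Rasd1 most in DMH, where 0 to 24 reads stood behind each value.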
